A study of Equus caballus with 4 samples.

Results

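FST, INHBA and TGFB1 encode 3 secreted proteins of the TGF-beta superfamily system: follistatin, the beta A subunit of the activins and inhibins, and transforming growth factor beta 1. They were taken as every non-control probe whose transcript the horse RefSeq gene table assigns to 1 of these genes, and all 3 genes were found, with 6 of the 43603 probes of the array (3 of the 1031 genes that could be named). FST was read by 1 probe (A_69_P000961, transcript NM_001081811), TGFB1 by 1 probe (A_69_P001041, NM_001081849) and INHBA by 4 probes (A_69_P000421 to A_69_P000424, NM_001081909), which share that transcript. The samples were sarcoids (fibroblastic tumours of the skin of horses that invade locally) from 4 horses, and skin taken away from the tumour of the same 4 animals. No treatment, age, breed or sarcoid type is given for the animals in the sources used here. On each of 4 two-colour arrays the sarcoid RNA of 1 horse was labelled with Cy3 and its skin RNA with Cy5. No array had the dyes swapped (0 of 4), so a dye effect specific to a probe is part of every ratio.

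Activin A is a dimer of INHBA subunits that binds type II and type I receptor kinases and acts through SMAD proteins. Follistatin wraps around activin in the extracellular space and keeps it from its receptors. TGF-beta 1 is secreted in a latent complex, is released from it by integrins and proteases, and is known in skin as an inducer of matrix synthesis by fibroblasts and an inhibitor of keratinocyte growth. Activin and follistatin are known in rodent skin from wound repair and from hair follicle development.

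The share of spots well above background was 67.2% to 78.4% in the sarcoid channel and 74.8% to 80.7% in the skin channel, with 0 saturated spots. All spots of the 6 probes were well above background in both channels on all 4 arrays, and the scanner software marked 0 of them as outliers. The Cy3 channel carried a higher floor: negative control spots had a median net signal (spot minus local background, in scanner units) of 41.5 to 48 in the sarcoid channel and of 8 to 13.5 in the skin channel. In the sarcoids, 8 of the 9 measured keratinocyte and gland markers (of 37 listed symbols) were lower. All 6 measured fibroblast markers (of 13 listed) were higher. LOR and LORICRIN, both among the 37 symbols, name the same gene. Over the whole array 9.9% of targets were lower and 5.84% higher (limma adjusted p under 0.05). The mean log2 level of those 9 markers lay between 7.93 and 9.33 in sarcoids and between 12.1 and 13.7 in skin, and that of the 6 fibroblast markers between 14.4 and 14.9 in sarcoids and between 11.7 and 12.6 in skin. These mixtures of cells are part of every comparison below, in which fewer cells of a type and less RNA per cell cannot be told apart.

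Follistatin mRNA was lower in the sarcoid than in the skin of every horse. The spot of FST had net signals of 519, 530.5, 98 and 212 in the sarcoids of horses 1 to 4, against 2584.5, 4536, 3842.5 and 4428 in their skin. The highest sarcoid signal was below the lowest skin signal, so the net signals of the tissues did not overlap. These are signals before normalization, from channels with different floors, as given above. The normalized levels that follow did not overlap either. The share of all targets without such an overlap was not counted. On the normalized log2 scale (loess within arrays, then equal mean intensity distributions between arrays) the levels were 9.18, 9.58, 6.85 and 8.38 in the sarcoids, against 11.56, 11.77, 11.63 and 11.44 in the skin. The skin samples lay close together, at 11.60 ± 0.14 (SD, n = 4), while the sarcoids spread more widely, at 8.50 ± 1.205. Of all 19607 targets, 4.13% had a wider SD than FST among the sarcoids and 70.8% had a wider one among the skin samples. A target was a named gene or, where no name was found, the array's systematic name, often that of a single probe. Neighbouring unnamed probes with near-equal ratios could thus count as separate targets.

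The log2 ratios of FST, sarcoid over skin, were -2.38, -2.19, -4.78 and -3.06 in horses 1 to 4. In linear terms FST was 5.20-fold lower in the sarcoid of horse 1, 4.57-fold lower in that of horse 2, 27.5-fold lower in that of horse 3 and 8.36-fold lower in that of horse 4. The mean was -3.10 ± 1.18 (SD, n = 4), an 8.60-fold lower level, with a limma 95% interval from -4.24 to -1.97 and an adjusted p of 0.0116 (limma, two-sided, Benjamini-Hochberg over 19607 targets). At an adjusted p under 0.05, 15.7% of all targets were called and 9.9% were called lower, and 269 targets (1.37%) had a lower mean log2 ratio than FST. In horse 3, where the ratio was farthest from 0, the sarcoid spot stood at a net signal of 98, and the 95th percentile of the negative control spots in that channel was 55.2.

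The call of FST depended on how the background was fitted. With normexp fitted to all spots and the outlier spots left out afterwards, the log2 ratios were -2.38, -1.69, -1.28 and -3.06 and their mean of -2.11 did not pass (limma adjusted p = 0.0698). The values of horses 1 and 4 were the same to 2 decimals in both orders, and those of horses 2 and 3 moved towards 0. In horses 2 and 3 the SD of the fitted background over all spots lay between 177 and 1536, against 0.124 to 1.57 without the outlier spots, and single spots there had net signals as low as -97299. With each horse left out in turn FST remained lower, with means from -3.41 to -2.55 and limma adjusted p-values from 0.00928 to 0.0483.

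**Figure D1:**
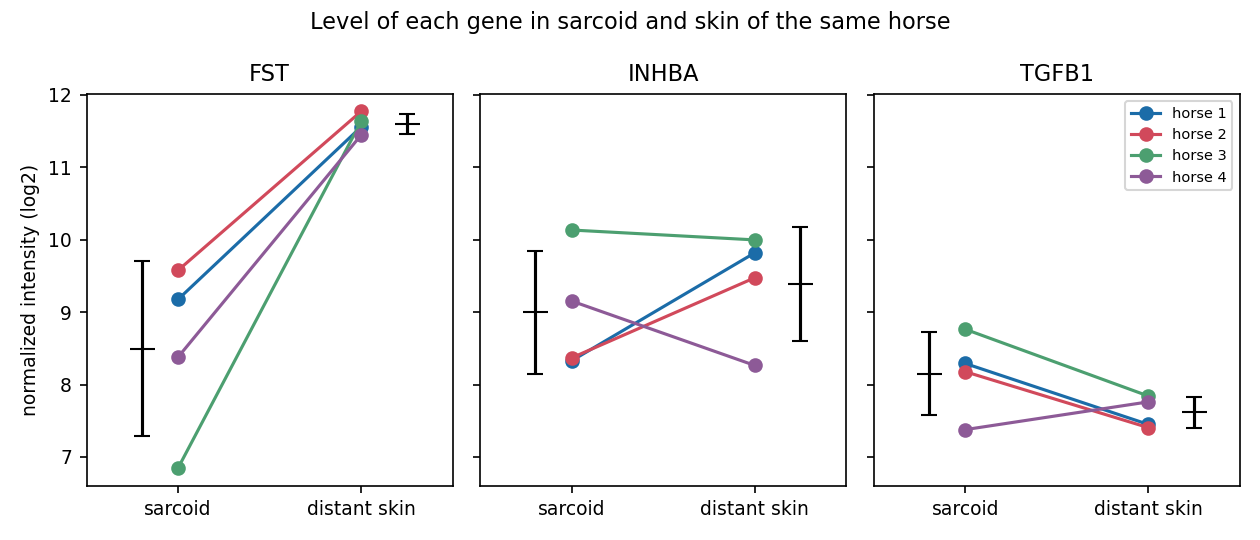
Normalized log2 intensity (y axis) of FST, INHBA (its brightest probe) and TGFB1 in sarcoid and distant skin (x axis), with a line joining the 2 tissues of each of 4 horses and black bars for the mean and SD. All 4 lines of FST end higher in skin, those of INHBA cross, and those of TGFB1 are higher in the sarcoid except in horse 4.

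The normalized log2 ratio of INHBA did not shift one way across the horses. The brightest probe of INHBA, A_69_P000422, had net signals of 303, 244.5, 1014 and 331 in the sarcoids of horses 1 to 4. Those in their skin were 757, 885.5, 1220 and 405. These signals before normalization, from channels with different floors, were lower in the sarcoid in every horse. The higher sarcoid values of horses 3 and 4 given below appeared only after normalization. The normalized log2 levels were 8.33, 8.37, 10.13 and 9.15 in the sarcoids, against 9.82, 9.47, 10.00 and 8.26 in the skin. The ranges of the tissues overlapped, with means of 8.995 ± 0.847 in sarcoids and 9.388 ± 0.780 in skin (SD, n = 4 each). The SD in skin was wide for this array: 3.03% of targets had a wider one there, and 10.0% had a wider one among the sarcoids.

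The log2 ratios of INHBA were -1.49, -1.105, 0.14 and 0.89 in horses 1 to 4. It was thus 2.81-fold lower in the sarcoid of horse 1, 2.15-fold lower in that of horse 2, 1.099-fold higher in that of horse 3 and 1.85-fold higher in the sarcoid of horse 4. The mean of -0.39 ± 1.0996 (SD, n = 4) did not pass the test (limma adjusted p = 0.584), and its 95% interval from -1.46 to 0.67 includes both a fall and a rise. Ratios of both signs among the 4 horses were common on the array, at 59.4% of targets. The distance of 2.38 between the highest and the lowest horse was less common: 4.87% of targets had a wider one, and the median over all targets was 0.77.

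The 4 probes of INHBA gave the same order of horses. Probe A_69_P000421 is spotted 5 times and the other probes once, so each array held 8 spots of this gene. Over these spots the log2 ratio ran from -1.51 to -1.31 in horse 1, from -1.18 to -1.05 in horse 2, from 0.04 to 0.17 in horse 3 and from 0.88 to 0.98 in horse 4. The ranges of the 4 horses did not overlap, and the SD over spots within an array was 0.0388 to 0.0804. The spread between horses was thus more than the spread between spots of 1 array, which holds the error of spotting and scanning but not that of labelling or sampling. None of the 4 probes passed when each of 33864 probes was tested on its own (limma adjusted p from 0.546 to 0.610), and 0 had an unadjusted p under 0.05. In that fit 18.2% of probes were called, 6.97% higher and 11.2% lower. The sizes, and in horse 3 the sign, depended on the processing. Centring each array on its median in place of loess put horse 3 at -0.07 and horse 4 at 0.31, and the order with outlier spots left out after the background fit put horse 2 at -0.51.

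**Figure D2:**
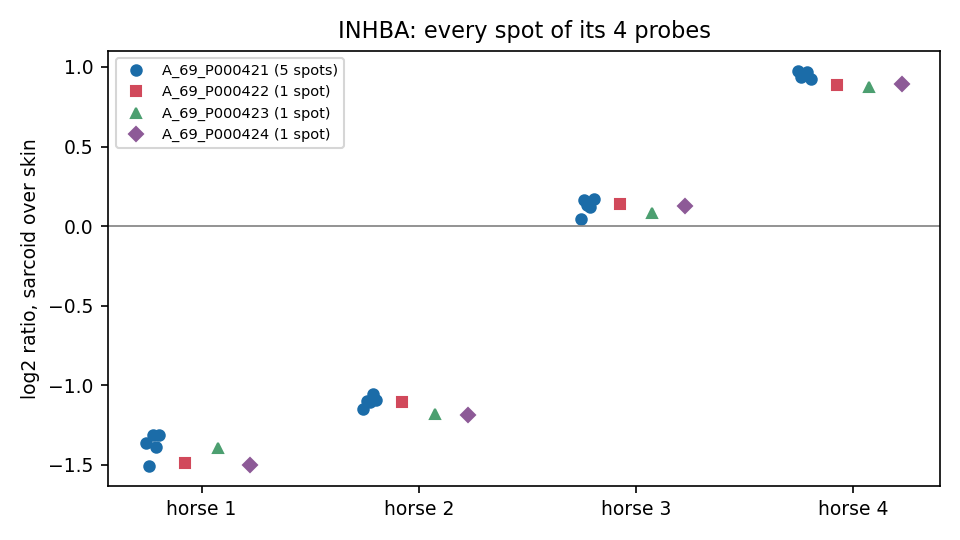
Log2 ratio of sarcoid over skin (y axis) for each of the 8 INHBA spots on each array (x axis, 1 array per horse), with the 4 probes in different symbols. The spots of 1 horse lie within a narrow band, from -1.51 to -1.31 in horse 1 and from 0.88 to 0.98 in horse 4.

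TGFB1 was higher in the sarcoid of 3 horses and lower in that of horse 4. Its single spot had net signals of 313, 228, 409 and 87.5 in the sarcoids of horses 1 to 4, against 107.5, 161, 228 and 239 in their skin. The normalized log2 levels were 8.29, 8.18, 8.76 and 7.38 in the sarcoids, against 7.45, 7.41, 7.84 and 7.76 in the skin. The sarcoids of horses 1 to 3 lay above all 4 skin samples, and the sarcoid of horse 4 lay below all of them. The tissue means were 8.15 ± 0.58 in sarcoids and 7.61 ± 0.22 in skin (SD, n = 4 each).

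The log2 ratios of TGFB1 were 0.84, 0.77, 0.92 and -0.38 in horses 1 to 4. The mean of 0.54 ± 0.62 (SD, n = 4) did not pass (limma adjusted p = 0.218, 95% interval from -0.10 to 1.17). In linear terms TGFB1 was 1.79-fold, 1.71-fold and 1.89-fold higher in the sarcoids of horses 1 to 3, and 1.30-fold lower in that of horse 4. Horse 4 decided the call: without it the mean was 0.84 ± 0.07 and passed (limma adjusted p = 0.0272), whereas without horses 1, 2 or 3 it lay between 0.41 and 0.46 and did not pass. The sarcoid channel of horse 4 had the lowest share of spots well above background of the 8 channels, at 67.2%, and its median net signal over all probes was 90, against 189 in the skin channel of the same array. The part of this in the TGFB1 value was not tested. In the other order of outlier removal the log2 ratios of horses 2 and 3 were 0.20 and 0.11, and the mean was 0.19 (limma adjusted p = 0.634).

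FST and TGFB1 had 1 spot on each array, so the error of a single spot is not measured for them. Over the 50 probes with at least 3 spots, the median SD of the log2 ratio within an array was 0.0655 to 0.0901. That SD holds the error of spotting and scanning only.

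In each of the 4 horses the log2 ratio of INHBA was above that of FST, a difference that also holds any dye effect specific to either probe. The difference of log2 ratios, INHBA minus FST, was 0.89, 1.09, 4.92 and 3.95 in horses 1 to 4, above 0 in 4 of 4. Its mean was 2.71 ± 2.03 (SD, n = 4), with p = 0.125 in an exact two-sided sign permutation test, the smallest p that 4 horses allow. TGFB1 minus FST was 3.22, 2.96, 5.70 and 2.68, likewise above 0 in 4 of 4 (mean 3.64 ± 1.39, exact permutation p = 0.125). TGFB1 minus INHBA was above 0 in horses 1 to 3, at 2.33, 1.88 and 0.78, and at -1.27 in horse 4 (mean 0.93 ± 1.60, exact permutation p = 0.375). Adjusted over these 3 pairs the exact p-values were 0.188, 0.188 and 0.375, and the design cannot reach 0.05.

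Few other genes of the superfamily could be read by name. Of the 103 other listed symbols of ligands, antagonists, latent complex proteins, receptors, mediators and target genes, 13 were measured. Of these, 4 were higher in the sarcoids (5.84% of all targets were called higher), 0 were lower and 9 did not pass. At an unadjusted limma p under 0.05, 5 were higher and 2 lower, and the share of all targets at that threshold was not counted. Without horse 1 the ligand BMP7 was lower (log2 ratio -1.12, limma adjusted p = 0.0371). The median log2 ratio of the 13 was 0.18, and that of all targets was 0.00354. The list was chosen with earlier results of these data known, and its called matrix genes had been seen to rise.

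Among the other ligands, BMP4, a bone morphogenetic protein, had log2 ratios of -0.43, -0.74, -1.20 and -0.01 in horses 1 to 4 (mean -0.59 ± 0.51, limma adjusted p = 0.131), and its 9 probes ranged from -0.64 to -0.55. The following 3 ligands lie outside the rule for named genes and were named after their values were seen. BMP7 was at -0.84 ± 0.61 (limma adjusted p = 0.0856). INHA, the alpha subunit that pairs with the product of INHBA to form an inhibin, was at -0.20 ± 0.36, and MSTN (myostatin) at -0.07 ± 0.22 (SD, n = 4), and neither passed. MSTN was at 0.0403 with the scanner software's processed signals and at 0.0238 without horse 2.

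FSTL1, a secreted glycoprotein of the follistatin-like family, had log2 ratios of 3.26, 2.01, 2.20 and -0.52 in horses 1 to 4, and its mean of 1.74 ± 1.60 (SD, n = 4) did not pass (limma adjusted p = 0.121). Like TGFB1 it was below 0 in horse 4 alone, and it passed without that horse, at 2.49 (limma adjusted p = 0.0182). FST was below 0 in all 4 horses.

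Of the genes tied to the latent complex and the matrix store of TGF-beta, the proteoglycans BGN (biglycan) and DCN (decorin), which bind TGF-beta, were the 2 of 14 measured, and both rose. BGN was at 3.06 ± 0.61 (limma adjusted p = 0.00193) and DCN at 1.84 ± 0.51 (limma adjusted p = 0.00612). On median centring without loess DCN was at 0.89 and did not pass (limma adjusted p = 0.0686). Both also belong to the fibroblast matrix. The fibroblast markers were higher as given above, but DCN is itself among those markers. The part of fibroblasts in the values of BGN and DCN was not tested.

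ACVR2A, a type II receptor of activin, was the 1 of 14 receptors measured. Its log2 ratios were -0.68, 1.11, 0.46 and 0.31 in horses 1 to 4, and the mean of 0.30 ± 0.74 (SD, n = 4) did not pass (limma adjusted p = 0.544). Among the intracellular mediators SMAD1, which carries the signal of bone morphogenetic proteins, rose in every horse, by 0.98, 0.80, 0.99 and 1.26. Its mean was 1.01 ± 0.19 (limma adjusted p = 0.00712), and the second of its 2 probes was at 0.57 and did not pass. SMAD5, which acts beside SMAD1, was at -0.11 ± 0.17, with 8 probes from -0.14 to 0.01, and SKI, a repressor of SMAD signalling, was at 0.18 ± 0.21 (SD, n = 4), and neither passed. SMAD5 was at 0.0385 with the processed signals.

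Of 21 listed symbols of target genes of the superfamily, 2 were measured. CCN2 and CTGF, both on that list, name the same gene. TIMP1, an inhibitor of matrix metalloproteinases, rose by 2.14 ± 0.80 (limma adjusted p = 0.0120), with its 5 probes between 2.09 and 2.17. It did not pass without horse 3 (2.07, limma adjusted p = 0.0510) or in the other order of outlier removal (2.12, limma adjusted p = 0.0722), nor with the channels modelled separately (limma adjusted p = 0.0581). TAGLN, a smooth muscle and myofibroblast protein that TGF-beta is known to induce, was at 0.92, 0.18, -0.88 and -0.64 in horses 1 to 4, and its mean of -0.10 ± 0.82 did not pass (limma adjusted p = 0.861). TAGLN was at 0.15 without horse 3 and at 0.07 without horse 4.

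**Figure D3:**
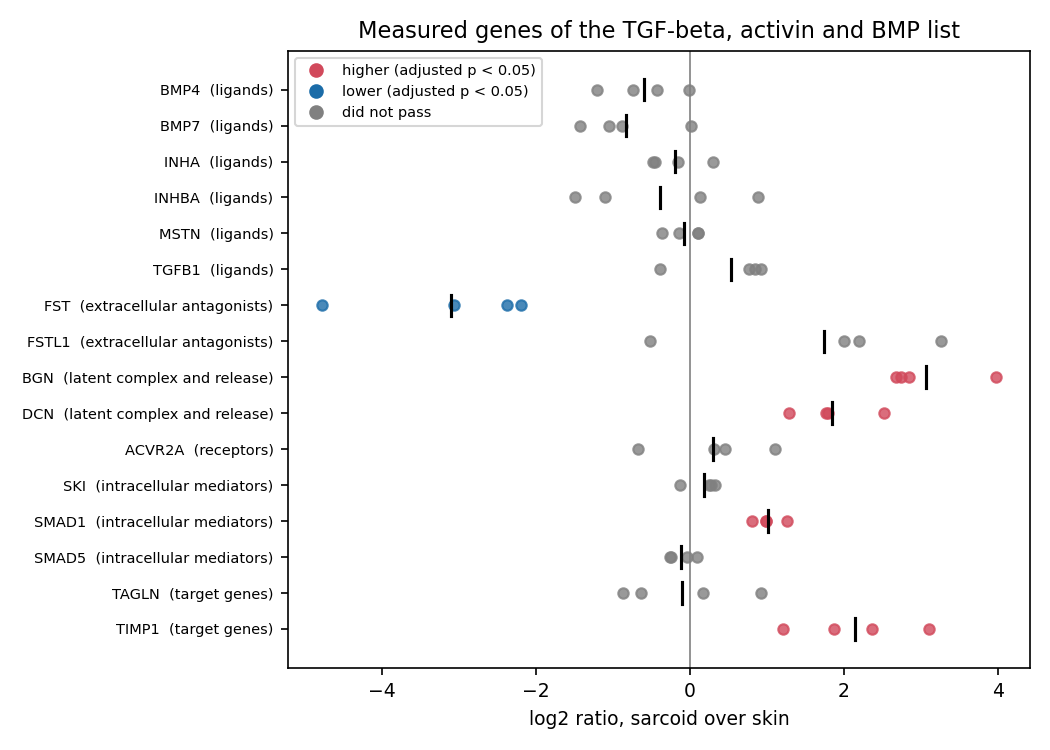
Log2 ratio of sarcoid over skin (x axis) in each of 4 horses (points) with the mean (black tick) for the 16 measured genes of the list, FST, INHBA and TGFB1 included, by role (y axis). FST is the 1 gene called lower, at -3.10, and BGN, DCN, SMAD1 and TIMP1 are the 4 that were higher.

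The named targets whose 4 log2 ratios were nearest to those of each gene, by the mean absolute difference over horses 1 to 4, were looked up among 790 other named targets. A likeness to the gene in sign or in the order of horses is favoured by this choice and is not a separate result. For FST the nearest was C1H15orf48, at -1.22, -2.34, -4.71 and -2.81 (mean absolute difference 0.411), which was also lowest in horse 3. Next were SERPINB10, a member of the serpin family of protease inhibitors (0.573), and CYP3A89, a cytochrome P450 (0.729). All 3 were lower in the sarcoids, with means of -2.77, -2.53 and -3.34, and each missed the threshold in the other order of outlier removal (limma adjusted p = 0.0989, 0.216 and 0.205). CYP3A89 belongs to a gene family whose members can share probe signal. C1H15orf48 also did not pass without horse 2 or horse 4 (limma adjusted p = 0.0771 and 0.0922), nor without the filter on dim probes (limma adjusted p = 0.0509).

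For TGFB1 the nearest were ADAMTS4, a protease of matrix proteoglycans, LITAF and EIF4G3, a scaffold of translation initiation, with mean absolute differences of 0.193, 0.219 and 0.220. ADAMTS4 was at 0.57, 0.67, 1.103 and -0.17 in horses 1 to 4, and LITAF at 1.09, 0.70, 0.50 and -0.26, both below 0 in horse 4 alone as TGFB1 was. EIF4G3 was above 0 in every horse, and its value in horse 4, 0.20, was the lowest of the 4. None of the 3 passed over all targets (limma adjusted p from 0.0527 to 0.213). EIF4G3 passed with the processed signals (0.84, limma adjusted p = 0.0476) and without horse 4 (0.76, limma adjusted p = 0.0395), and its 1 probe was called in the fit over probes.

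For INHBA the nearest were PTMA, which encodes the nuclear protein prothymosin alpha, and JARID2, a partner of the Polycomb repressive complex, with mean absolute differences of 0.477 and 0.479. PTMA and JARID2 were at -0.11 and -0.33 in horse 4, where INHBA was at 0.89. Neither passed (limma adjusted p = 0.254 for PTMA and 0.0929 for JARID2). On median centring both passed, PTMA at -1.01 (limma adjusted p = 0.0328) and JARID2 at -0.95 (limma adjusted p = 0.0299).

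Of the 5 measured keratinocyte markers 4 were lower in the sarcoids, and DEFB4B, at -2.59 ± 1.67 (SD, n = 4), did not pass (limma adjusted p = 0.0501). KRT15, a keratin of basal keratinocytes, had log2 ratios of -5.08, -4.99, -5.20 and -5.21 in horses 1 to 4, against -2.38, -2.19, -4.78 and -3.06 for FST. The SD over horses was 0.11 for KRT15 and 1.18 for FST. Of the other keratinocyte markers, S100A7 and SPINK7 had SDs of 0.36 and 0.06, while SPINK9 (1.01) and DEFB4B (1.67) varied more. Of the 10 genes listed as hair follicle markers 0 were measured, and the part of epithelial cells in the FST value was not tested. Of the other cell types, 1 of 4 macrophage and dendritic cell markers and 1 of 4 endothelial markers were higher in the sarcoids, and the others of those lists did not pass. Of 5 melanocyte markers 2 were lower (PMEL and TYRP1) and of 4 skeletal muscle markers 1 was lower (MB), and none of the 4 T and NK cell markers passed. Over all targets 5.84% were called higher and 9.9% lower, and each of these lists is short. The median log2 ratio of the macrophage markers was 1.31, 0.77, -0.17 and 0.72 in horses 1 to 4, and that of the endothelial markers 0.23, 1.94, -1.03 and 0.44. In both lists horse 3 was the lowest. It was also the lowest for the T and NK cell, melanocyte, and sweat and sebaceous gland markers and for TAGLN. For the fibroblast, keratinocyte and skeletal muscle markers another horse was the lowest. These orders of horses are those of the reported processing, and none is given for the markers in the other order of outlier removal. In that order FST was at -1.28 in horse 3, the value nearest to 0 among the horses. The part of any of these cell types in the values of INHBA and TGFB1 was not tested.

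**Figure D4:**
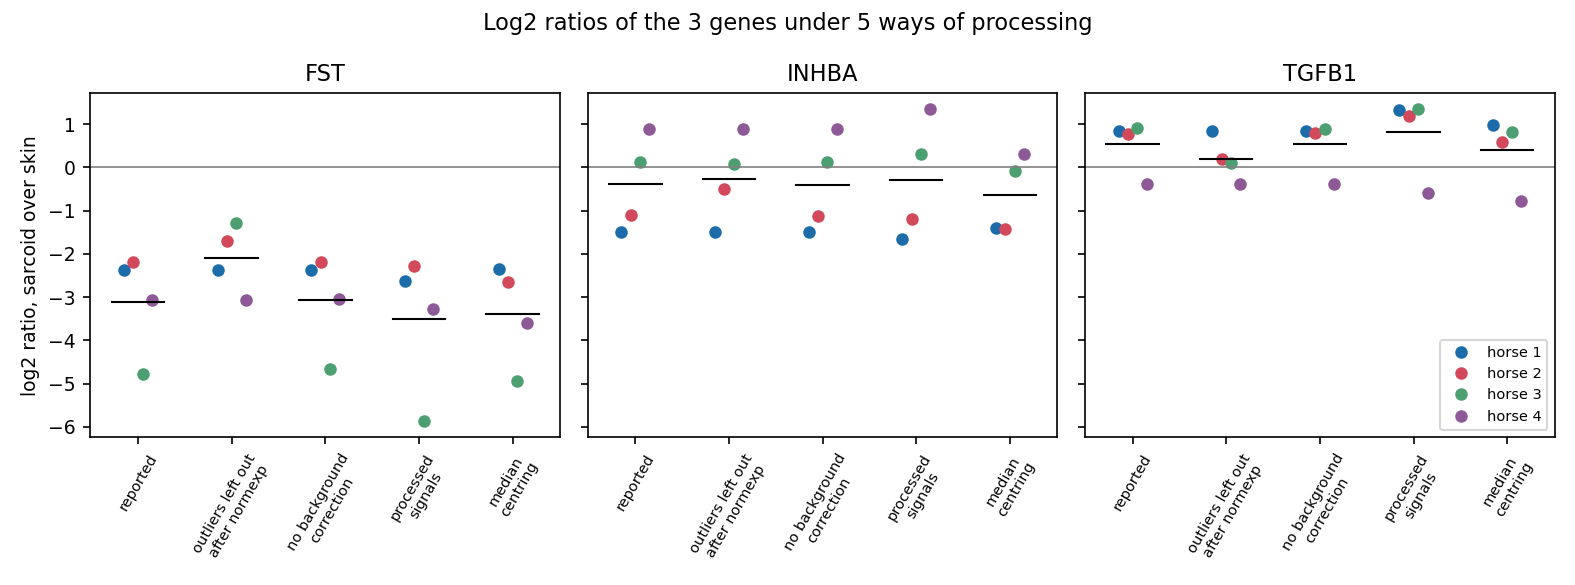
Log2 ratio of sarcoid over skin (y axis) of FST, INHBA and TGFB1 in each of 4 horses (points) with the mean (black line), as reported and under 4 other ways of processing (x axis). The point of horse 3 for FST moves from -4.78 as reported to -1.28 with the outlier spots left out after the background fit, while horses 1 and 4 keep their values there.

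With the scanner software's own processed signals, which that software background-subtracts and dye-normalizes in its own way, the ratios spread further in both directions. FST was at -2.64, -2.29, -5.87 and -3.27 in horses 1 to 4, with a mean of -3.52 (limma adjusted p = 0.0105). INHBA was at -1.66, -1.20, 0.32 and 1.35, with a mean of -0.30, and TGFB1 at 1.32, 1.19, 1.34 and -0.60, with a mean of 0.81. Neither INHBA (limma adjusted p = 0.734) nor TGFB1 (limma adjusted p = 0.192) passed there.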

How the data were processed

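Per the file headers, the deposited scanner files give each channel's spot intensity and local background on a linear scale, and processed intensity values that the software had background-subtracted and dye-normalized. The submitters' processing notes name Agilent Feature Extraction 11.5.1.1. The authors' deposited value table equals the scanner files' log10 ratio of Cy5 over Cy3 (largest difference 0), with column medians of 0, -0.00262, -0.0118 and 0 for horses 1 to 4. The flag columns hold 0 or 1, per the file headers. For 3 samples the description speaks of embryonic stem cells, and it was not used.

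Outlier spots were left out (6 to 47 per array) before normexp (offset 50) on the signal medians and loess within each array, with controls at weight 0 (limma 3.58.1, R 4.3.3). This order of outlier removal was taken over from an earlier treatment of these data, with its counts known. Spots of a probe were averaged. A probe was kept if 1 channel was well above background on 3 or more arrays, and the brightest probe stood for a target. Each log2 ratio was compared with 0 by lmFit and eBayes, with Benjamini-Hochberg adjustment, after a check on simulated data. Pairing by horse is inside the ratio. The arrays share 1 slide. Only 5.35% of probes could be named, through the horse RefSeq table. Genes, lists and tests were chosen with earlier results of these data known. Named genes were FST, INHBA and TGFB1, the 3 nearest named targets of each (1 is not reported here), and list members that passed or were the 2 brightest of their role among those that did not. Other genes named are said to be so, or are markers. The number of arrays limits the precision.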

Additional observations from a re-analysis of the deposited data

Results flagged for a closer look

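The TGFB1 log2 ratio of horse 4, -0.38, lay far from the other 3 horses: its gap to the nearest of them was 0.885 of the whole range, above the 95% critical value for 4 samples. The largest gap was below that value on median centring (0.780) and with outlier spots left out after normexp or kept (0.523 each, where it was the gap above horse 2, to horse 1). A gap above the critical value is met by chance in about 1 group in 20, and 3 genes were looked at, so at least 1 such gap is met more often. FST (0.664, from horse 3) and INHBA (0.316) did not exceed the critical value.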

How the results depend on the processing

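Over 15 alternatives FST was lower throughout (means -3.52 to -2.11) and lost its call in 2: with outlier spots left out after normexp (-2.11) and with outlier spots kept (-2.11). The alternatives are not independent. Other filters, the median over probes, the trended prior and separate channels left the mean of FST at -3.10 and could change only its p-value. The deposited table repeats the processed signals. INHBA passed in none of the 15, and TGFB1 only without horse 4. Without 1 horse at a time the means ran from -3.41 to -2.55 for FST, from -0.82 to -0.03 for INHBA and from 0.41 to 0.84 for TGFB1. Targets higher in sarcoids numbered 1146 as reported, 93 with outliers left out after normexp, 94 with outliers kept, 1887 with processed signals, 1883 with the authors' deposited table, 614 on median centring, 613 with a robust trended prior, and 389 to 820 without 1 horse. Targets lower numbered 1941, then 147 and 147 in the 2 outlier settings and 1077 to 1415 without 1 horse, with 2678 on median centring. Probes higher numbered 2361 as reported, 229 with outliers left out after normexp, 1360 on median centring and 856 to 1619 without 1 horse, and probes lower 3795, then 391 with outliers left out afterwards and 2151 to 2759 without 1 horse. Other list members called lower numbered 0 to 1 without 1 horse. With the channels modelled separately and no replicate block, FST passed (limma adjusted p = 0.00607) and INHBA (0.691) and TGFB1 (0.267) did not. No paired analysis beyond the ratio was possible because each array holds both tissues of 1 horse. Signs turned for MSTN (0.0403 with processed signals or the deposited table, -0.13 to 0.0238 without 1 horse), SMAD5 (0.0385 with processed signals or the deposited table) and TAGLN (-0.45 to 0.15 without 1 horse). The dim sarcoid spot of FST in horse 3 and the dim TGFB1 spot in horse 4 limit how closely their ratios are known.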
